A study of Rattus norvegicus with 11 samples.

Results

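The comparison described here is between ligated rat ganglia given UNC0638 and ligated ganglia without it, gene by gene. It used the 3 libraries labelled SNL plus UNC0638 and the 4 libraries labelled SNL (spinal nerve ligation), and took every gene that reached 10 in 3 or more of these 7 libraries. Of the 16811 genes listed, 11957 met that rule, and 11955 were tested after 2 genes listed at 0 throughout 1 group (Sdc2 and Pcdhgc5) were left out on their values. The study measured RNA of dorsal root ganglia of Sprague-Dawley rats by sequencing in 11 libraries. All 7 libraries of the comparison came from ligated ganglia of the left side, and the SNL plus UNC0638 libraries from ganglia whose label places the compound after the ligation. A further 4 libraries (Sham), also labelled as controls of the right side, serve as a reference level. No group received UNC0638 without ligation. The sources used here do not give the dose, route and timing of the compound, the rats' age or the level of the ganglia. Nothing in the labels ties a library to an animal, so the tests measure the spread between these libraries, which may be technical in part. RNA was extracted with Trizol or with RNeasy, and no source used here says which served for which library, so effects of the reagent and of the compound cannot be told apart.

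Dorsal root ganglia hold the cell bodies of sensory neurons, wrapped by satellite glia, together with Schwann cells, resident macrophages, fibroblasts and vessels. Ligation of a spinal nerve cuts off the axons of these neurons, which then lower many channel and receptor genes, raise neuropeptide and growth genes, and draw in immune cells. G9a (gene Ehmt2) and its partner GLP (gene Ehmt1) place mono- and dimethyl marks on lysine 9 of histone H3, a mark of silenced genes, and UNC0638 blocks the enzyme site of both. The study's title concerns the part of G9a in the silencing of potassium channel genes after nerve injury, and this comparison shows which genes differed when the inhibitor was given.

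Values are gene counts scaled by the authors with 1 factor per library. They totalled 9450045 to 10632484 in the 7 libraries. The reads behind them, as estimated from the smallest steps between low values, numbered 10616939 to 24367768 in SNL and 6127901 to 11180236 in SNL plus UNC0638, so the treated libraries were the shallower ones as a group. A gene is said to rise or fall where limma on log2(value + 1), with 1 mean for each of the 3 groups over all 11 libraries, gave a Benjamini-Hochberg adjusted p under 0.05 (two-sided, over all 11955 genes). Log2 fold changes are SNL plus UNC0638 minus SNL on that scale, which understates the change of genes with low values, and SE comes from limma's moderated fit.

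The library labelled SNL plus UNC0638 replicate 1 went against its label on the genes of nerve injury. Its mean level over 38 injury and regeneration genes exceeded the Sham mean by 0.28 (log2), where replicates 2 and 3 exceeded it by 1.83 and 2.28 and the SNL libraries by 2.89 to 3.25. The transcription factor gene Atf3, a marker of injured sensory neurons, had a value of 265 there, 1802 and 2393 in replicates 2 and 3, 4914 to 7460.0 in SNL and 160.2 to 178 in Sham. Skeletal muscle genes were also high in this library: 13 of 16 tested muscle genes had their highest value of all 11 libraries in it, with Myh4, a fast myosin heavy chain gene, at 38568 against 11.9 to 185 in the Sham and SNL libraries. SNL replicate 3 stood closer to the SNL plus UNC0638 libraries than the other SNL libraries did, with a correlation over genes of 0.939 to 0.957 against 0.873 to 0.946. Counts of genes that rose and fell are therefore also given without the library labelled replicate 1. The plot of list medians shows the median of each gene group against SNL replicate 3 alone, and the text gives some of these medians.

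In the ligated ganglia 1599 genes were higher with UNC0638 (13.4% of those tested) and 1725 were lower (14.4%). Of these, 847 rose and 353 fell at least 2-fold (7.08% and 2.95%). Without the library labelled replicate 1, 1216 rose and 1322 fell (10.2% and 11.1%) and of these 729 and 278 at least 2-fold (6.10% and 2.33%). With a term in the model for Sham replicate 3, SNL replicate 3 and the treated libraries, which sets them apart from the others, 627 rose and 649 fell (5.24% and 5.43%). No label used here gives this grouping, so the term is not a known batch. Its size comes only from the contrast of these Sham and SNL libraries with the others of their groups, and is then applied to all treated libraries. For gene groups, pairs of counts below give the members that rose and fell, in that order. The median log2 fold change over all tested genes was 0.00262. A fit with limma-voom on the estimated reads gave 3258 higher and 1533 lower, a share of 68.0% higher against 48.1%, with a median log2 fold change of 0.12. The plot of level against difference shows the larger changes on the side of higher genes.

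**Figure D1:**
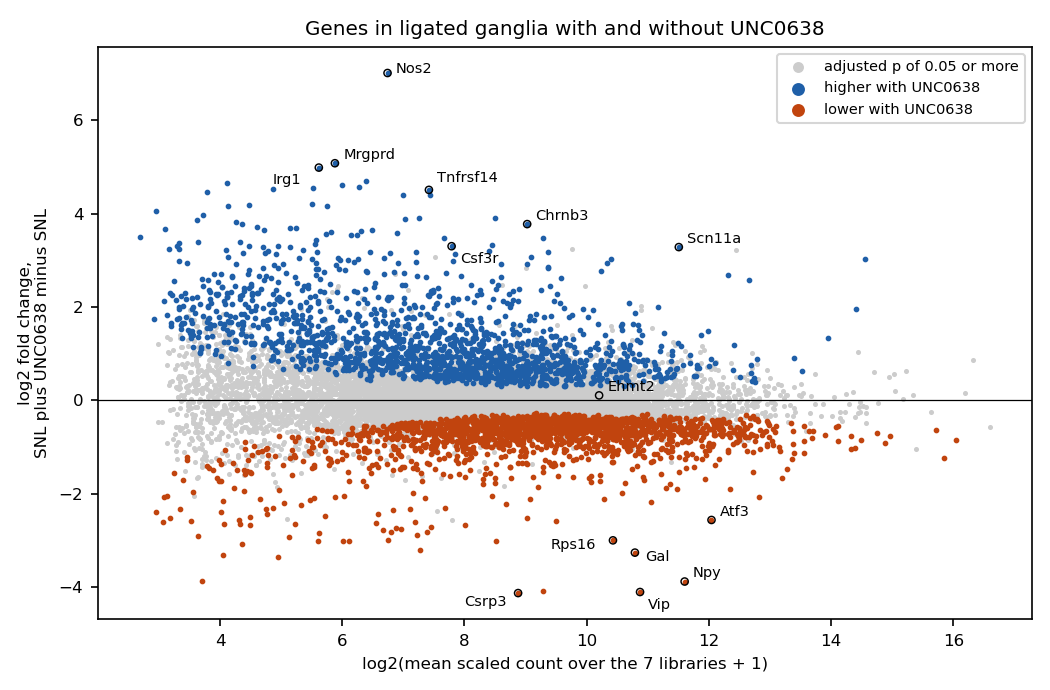
Each point is 1 of 11955 genes: the x axis is log2 of the mean scaled count over the 7 libraries plus 1, and the y axis the log2 fold change of SNL plus UNC0638 against SNL. Blue and orange points passed the test as higher (1599) and lower (1725), grey points did not; of the called genes, 847 rose at least 2-fold and 353 fell at least 2-fold.

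Neither gene of the enzymes that UNC0638 blocks passed the test. Ehmt2 had scaled counts of 1143, 1121, 1240.5 and 1032 in SNL and 1041, 1555 and 1116 in SNL plus UNC0638 (log2 fold change 0.11, SE 0.17, adjusted p = 0.662). Ehmt1 had 695, 629, 702 and 687 and 585, 687 and 644 (log2 fold change -0.09, SE 0.11, adjusted p = 0.549). The values of both groups overlapped for both genes, and RNA levels do not report enzyme activity. Of 21 genes of the writers, erasers and readers of histone H3 lysine 9 methylation, 3 rose and 2 fell with a median log2 fold change of 0.24, and 2 and 0 without the library labelled replicate 1 and 0 and 0 with the model term. These shares over all libraries (14.3% and 9.52%) were near or below the 13.4% and 14.4% of all tested genes. With limma-voom on the estimated reads 9 of these genes rose and 1 fell, and 3258 of all 11955 tested genes rose and 1533 fell. Rises among these genes ran from 1 (without SNL replicates 1 and 4 and SNL plus UNC0638 replicates 2 and 3) to 5 (without Sham replicate 3), and falls from 0 (without SNL replicates 1, 2 and 4 and SNL plus UNC0638 replicate 1) to 4 (without Sham replicate 3), when 1 library at a time was left out. The methyltransferase gene Setdb1, whose product places the trimethyl mark, had 587, 578, 603 and 561 in SNL and 756, 794 and 846 with UNC0638, all above SNL (log2 fold change 0.45, SE 0.11, adjusted p = 0.0109). Kdm4a, which encodes a demethylase of the same residue, went from 1115 ± 72.8 to 1529.8 ± 313 (mean ± SD, n = 4 and 3, log2 fold change 0.44, adjusted p = 0.0334). Phf8, a demethylase gene, rose by 0.57, while Cbx5, whose product HP1 alpha binds the mark, fell by 0.52 on the log2 scale.

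Genes known from activated macrophages and genes known from sensory neurons were among the 14 highest log2 fold changes. Nos2, which encodes the inducible nitric oxide synthase of activated macrophages, had scaled counts of 0, 2.27, 3.12 and 0.769 in Sham, 0.941, 0.857, 1.5 and 0 in SNL and 131, 398 and 210.3 in SNL plus UNC0638 (log2 fold change 7.01, SE 0.57, adjusted p = 0.000106). Irg1, whose product makes the metabolite itaconate in activated macrophages, had 2.82, 3.00, 2.25 and 0.912 in SNL and 55.6, 178 and 94.2 with UNC0638 (log2 fold change 4.98, SE 0.50, adjusted p = 0.000245). Both genes were at 3.12 or less in all 8 libraries without the compound and at 55.6 or more in all 3 with it. Both therefore met the filter on low values through the treated libraries alone. Tnfrsf14, a receptor gene of the tumour necrosis factor receptor family found on lymphoid and myeloid cells, had 23.5, 12.9, 11.3 and 14.6 and 244, 402 and 482 (log2 fold change 4.51, SE 0.47, adjusted p = 0.000276).

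Some further cytokine and inflammation genes also rose. Of 28 tested genes of inflammatory myeloid activation, 10 rose and 2 fell (median log2 fold change 0.95), and 13 rose and 2 fell without the library labelled replicate 1 (median 1.43). With the model term the counts were 7 and 1. The shares over all libraries (35.7% and 7.14%) compare with 13.4% and 14.4% of all tested genes. A listed gene below 10 in all SNL libraries was tested only if all 3 treated libraries reached 10, which favours rises among such genes. Il1b, the gene of the cytokine interleukin-1 beta, had 34.8, 39.4, 18.8 and 30.1 in SNL and 206, 280.0 and 228 with UNC0638 (log2 fold change 2.95, SE 0.29, adjusted p = 0.000214). Tnf, the gene of tumour necrosis factor, had 9.41, 6.86, 7.51 and 4.56 and 36.8, 68.1 and 47.7 (log2 fold change 2.67, SE 0.35, adjusted p = 0.000775). Ccl20, a chemokine gene, was listed at 0.941, 0, 1.5 and 0 in SNL and at 35, 29.4 and 47.7 with UNC0638 (log2 fold change 4.66, SE 0.53, adjusted p = 0.000357). The SNL and SNL plus UNC0638 values did not overlap for any of these 3 genes, and the library labelled replicate 1 lay on the side of the other treated libraries in each. Tnf and Ccl20 were below 10 in all SNL libraries and so were tested through the treated libraries alone.

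The other members that rose were Il1rn, which encodes the natural antagonist of the interleukin-1 receptor (log2 fold change 2.71), the chitinase-like gene Chi3l1 (2.06), the prostaglandin E synthase gene Ptges (1.61), the chemokine gene Cxcl1 (2.72) and the receptor gene Tlr2 (1.24). The 2 that fell were Il1a, the gene of interleukin-1 alpha (-2.39), and Arg1, the gene of arginase 1 (-2.68), which is also among the injury genes of sensory neurons. The chemokine gene Ccl2 and the cytokine gene Il6, named after their values were seen, did not pass the test: Ccl2 had 527, 464, 206 and 886 and 201, 537 and 395 (adjusted p = 0.539), and Il6 15, 26.1, 6.01 and 17.3 and 2.69, 1.55 and 11.6 (adjusted p = 0.0657). Leaving out each library in turn gave 8 to 13 members higher, lowest without SNL plus UNC0638 replicate 2, and 1 to 4 lower, lowest without SNL replicate 1.

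**Figure D2:**
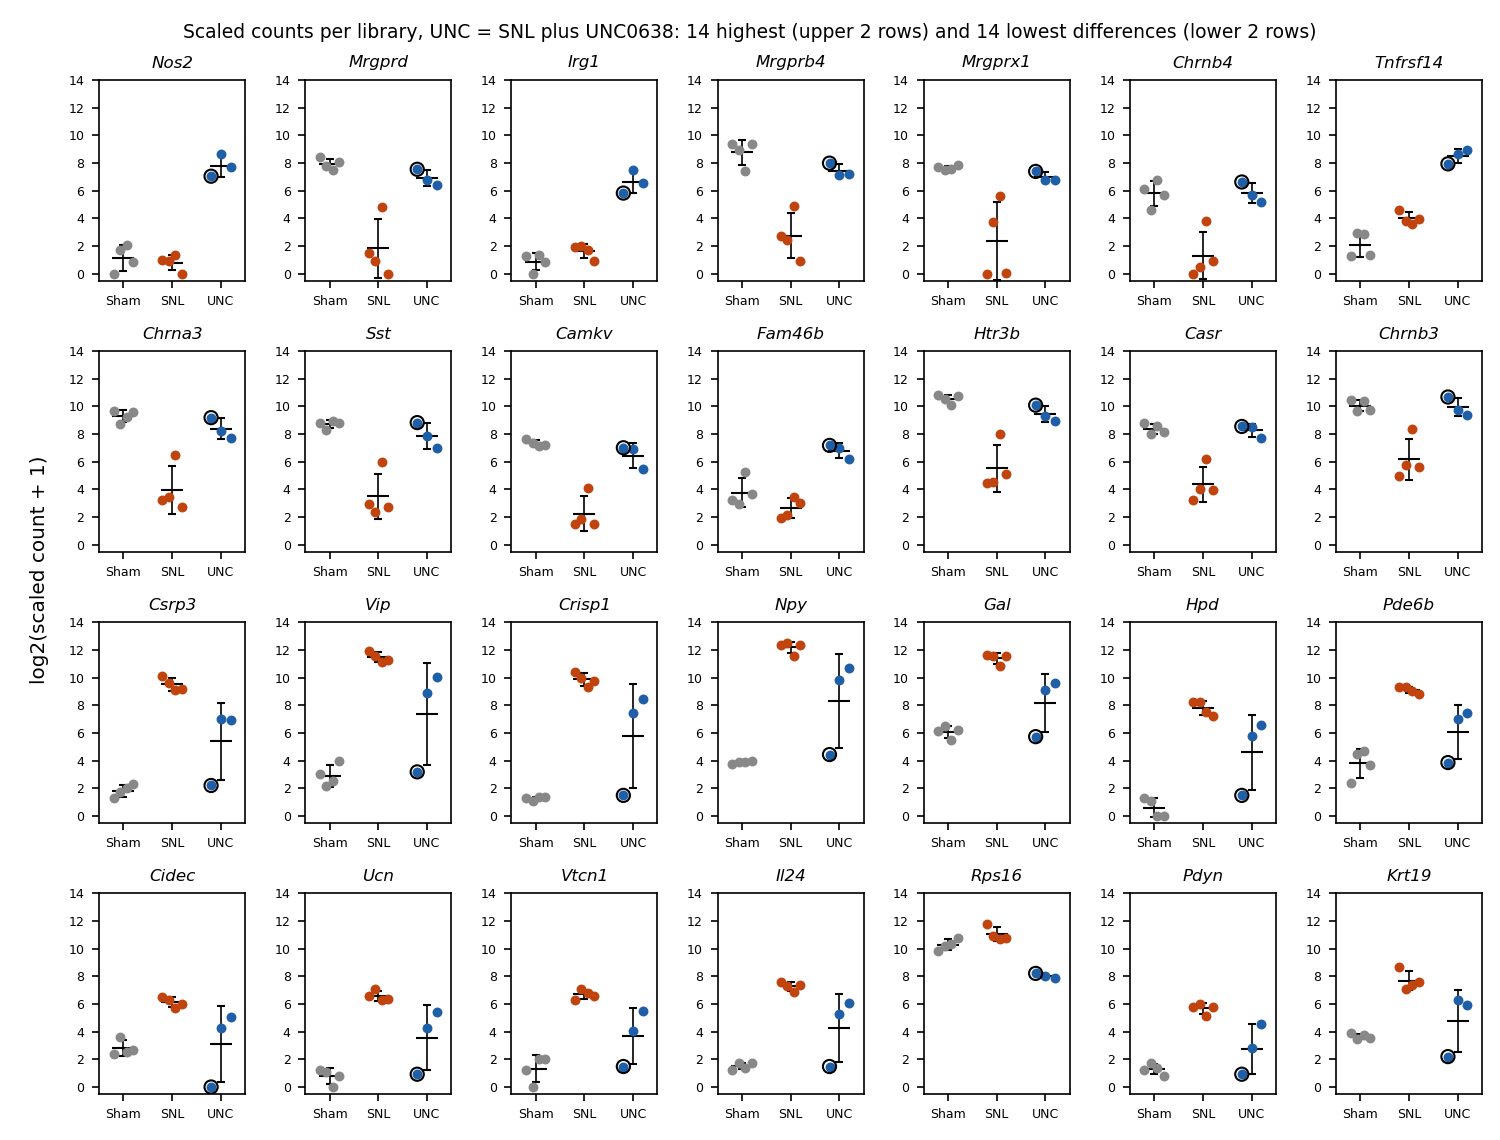
Scaled counts, as log2(value + 1), of the 14 genes with the highest and the 14 with the lowest log2 fold changes by the naming rule, 1 panel per gene, in Sham (grey, n = 4), SNL (orange, n = 4) and SNL plus UNC0638 (blue, n = 3, UNC on the axis). Dashes and bars are the mean and SD, and the ringed point is the library labelled SNL plus UNC0638 replicate 1, which lies near Sham in the lower panels except Rps16; Nos2, Irg1 and Tnfrsf14 lie above all Sham and SNL libraries in all 3 treated libraries.

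Genes of the interferon response rose in part. Of 38 tested, 10 rose and 2 fell (median log2 fold change 0.44), and 13 rose and 1 fell without the library labelled replicate 1 (median 0.77). With the model term 7 rose and 1 fell. Leaving out each library gave 6 to 13 higher, lowest without SNL plus UNC0638 replicate 2. Igtp, a gene of the interferon-inducible GTPases, had 351, 333, 308 and 463 in SNL and 710.3, 1501 and 1059 with UNC0638 (log2 fold change 1.53, SE 0.25, adjusted p = 0.00177). Irf1, a transcription factor of the interferon pathway, rose from 401 ± 64.9 to 1122 ± 500.2 (log2 fold change 1.39, adjusted p = 0.00474), and Tap1, a transporter that loads peptides for antigen presentation, from 409 ± 41.7 to 1147 ± 579 (1.37, adjusted p = 0.00409). All 3 treated libraries were above all 8 others for each of these 3 genes, with the lowest treated value in the library labelled replicate 1.

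The antiviral genes of the list did not move as a block. Mx2 fell, with 3657, 3934, 2344 and 4464 in SNL, 525, 1092 and 1509 with UNC0638 and 554, 604, 795 and 599 in Sham (log2 fold change -1.88, SE 0.32, adjusted p = 0.00219), and Mx1 fell by 1.27 on the log2 scale. Oas1k and Oasl2, of the oligoadenylate synthetase family, rose by 2.60 and 1.46. The chemokine gene Cxcl11 and the immunoproteasome gene Psmb9 rose by 2.39 and 0.93, and the interferon-inducible GTPase genes Irgm and Ifi47 by 1.39 and 1.04.

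The promoters of 3 of these higher genes are shown because the letters of the sites that NF-kappa-B and the interferon-regulated factors bind can be read in them. Each run is the 250 bases before the RefSeq gene start (build GRCr8), on the gene's strand. Ccl20 is at chr9:91836909-91837158 (plus strand), Tap1 at chr20:4668544-4668793 (minus strand) and Igtp at chr10:42874797-42875046 (plus strand). Capitals mark matches on either strand. The NF-kappa-B motif, GGGRNNYYCC (R is A or G, Y is C or T, N is any base), is in Ccl20 and the second capital run of Tap1. GAAANNGAAA is in Igtp and in the first capital run of Tap1. The match in Ccl20 and the first in Tap1 are on the opposite strand.
Ccl20: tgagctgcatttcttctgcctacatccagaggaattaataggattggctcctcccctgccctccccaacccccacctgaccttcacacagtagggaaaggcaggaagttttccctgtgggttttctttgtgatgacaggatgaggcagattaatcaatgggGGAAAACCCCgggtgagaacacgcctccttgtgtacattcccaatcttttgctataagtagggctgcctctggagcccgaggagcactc
Tap1: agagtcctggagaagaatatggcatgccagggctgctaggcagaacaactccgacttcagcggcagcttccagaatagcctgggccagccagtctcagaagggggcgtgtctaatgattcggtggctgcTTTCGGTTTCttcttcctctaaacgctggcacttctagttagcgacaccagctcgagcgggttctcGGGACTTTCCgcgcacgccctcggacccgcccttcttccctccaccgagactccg
Igtp: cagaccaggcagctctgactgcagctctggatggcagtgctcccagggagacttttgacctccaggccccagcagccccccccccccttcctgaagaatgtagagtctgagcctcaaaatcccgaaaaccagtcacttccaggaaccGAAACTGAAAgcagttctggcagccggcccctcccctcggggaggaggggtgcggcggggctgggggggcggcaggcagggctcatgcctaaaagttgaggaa
The matches began 89 bases before the start of Ccl20, 121 and 55 bases before that of Tap1 and 103 bases before that of Igtp. They are matches of letters on a later genome build than the reads were aligned to, not measured binding.

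Searched on both strands, GAAANNGAAA was in 65.5% of the interferon list's promoters (19 of 29 tested genes with a sequence), in 3.29% of all 27457 RefSeq entries and in 2.63% of the 8832 tested genes with a sequence. Among all genes that rose it was in 3.34% of 1169, and among those that fell in 1.7% of 1293. Of the 8 interferon genes with a sequence that rose, 4 held it (Igtp, Irgm, Oasl2 and Tap1). The NF-kappa-B motif was in 9.5% of the promoters of genes that rose, 7.81% of those that fell, 8.4% of all tested and 6.41% of all entries. In the inflammatory myeloid list it was in 7 of 22 (31.8%), among them Ccl20, Cxcl1 and Tlr2 of the genes that rose. In the interferon list it was in 8 of 29 (27.6%), and in 5 of the 8 with a sequence that rose.

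Few macrophage markers passed the test as set out above, and the count depended on the fit. Of 26 tested, 4 rose and 1 fell (median 0.40), and 7 and 0 without the library labelled replicate 1 and 0 and 0 with the model term. The shares of 15.4% and 3.85% stand beside 13.4% and 14.4% of all tested genes. Without the library labelled replicate 1, 10.2% and 11.1% of all tested genes rose and fell. With limma-voom on the estimated reads 13 markers rose and 1 fell, and 3258 of all tested genes rose and 1533 fell. Rises among macrophage markers ran from 2 (without SNL plus UNC0638 replicate 2) to 8 (without Sham replicate 3) when 1 library at a time was left out. Their summed scaled count was 15619.6 to 29131.5 in SNL and 15900.5, 28197 and 29155 in SNL plus UNC0638. Cd14, a co-receptor for bacterial lipopolysaccharide, had 64.9, 43.3, 48.8 and 72.1 in SNL and 139, 367 and 217 with UNC0638 (log2 fold change 1.97, SE 0.40, adjusted p = 0.00502). The scavenger receptor gene Cd163 rose from 111 ± 20.4 to 294 ± 113 (1.36, adjusted p = 0.00942), and Lgals3, the gene of galectin-3, fell from 5366 ± 1222 to 2720.1 ± 702 (-0.98, adjusted p = 0.0294, and 0.108 without the library labelled replicate 1). In RNA of whole ganglia, fewer cells of a type and less RNA per cell cannot be told apart.

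Of 20 neutrophil markers present, only 8 passed the filter on low values, of which 4 rose and none fell, and 3 and 0 without the library labelled replicate 1 and 3 and 0 with the model term. Csf3r, the receptor gene for granulocyte colony-stimulating factor, had 16.7, 18.2, 34.3 and 13.8 in Sham, 41.4, 47.2, 58.6 and 34.7 in SNL and 363, 521 and 476 with UNC0638 (log2 fold change 3.30, SE 0.29, adjusted p = 0.000138). Lcn2, which encodes the iron-binding protein lipocalin-2, had 32.9, 27.4, 88.6 and 20.1 in SNL and 231, 277 and 356 with UNC0638 (log2 fold change 2.95, SE 0.42, adjusted p = 0.00105). Il1r2, a decoy receptor gene for interleukin-1, had 18.8, 20.1, 8.26 and 24.6 and 66.4, 104 and 79.98 (log2 fold change 2.22, SE 0.46, adjusted p = 0.00557). In each of these 3 genes all treated libraries were above all 8 others. The granule genes of the list that missed the filter on low values were low in all groups, which does not cover Lcn2. The peroxidase gene Mpo was at 3.09 or less, the elastase gene Elane at 4.64 or less, and Ltf, the gene of lactoferrin, at 3.00 or less in all 11. The granule genes Ngp, Mmp8 and Camp were at 5.16 to 14.4 with UNC0638 and reached 23.6, 16.7 and 12.5 in Sham.

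Lymphocyte markers were low. Of 23 tested T and NK cell markers 4 rose and 1 fell, and 5 and 1 without the library labelled replicate 1 and 3 and 0 with the model term. The shares (17.4% and 4.35%) compare with 13.4% and 14.4% of all tested genes. Rises among these markers ran from 0 (without SNL replicates 2, 3 and 4 and SNL plus UNC0638 replicates 2 and 3) to 7 (without Sham replicate 3) when 1 library at a time was left out. The T cell co-receptor gene Cd8a had 23.5, 16.3, 6.76 and 10.9 in SNL and 31.4, 49.5 and 67.1 with UNC0638 (log2 fold change 1.77, SE 0.55, adjusted p = 0.0325), and its call was lost without each of the same 5 libraries. Gzmb, the gene of granzyme B, had 219, 199, 114 and 126 in SNL, 2.69, 55.7 and 54.2 with UNC0638 and 0 to 1.56 in Sham (log2 fold change -2.82, SE 0.81, adjusted p = 0.0247); its call was lost without SNL replicate 1 or 2. Of 4 tested B cell markers Mzb1, a gene of antibody-secreting cells, rose. It had 0.941, 2.14, 7.51 and 0.912 in SNL and 10.8, 48 and 63.2 with UNC0638 (adjusted p = 0.00588). Its Sham values of 4.17 to 20.3 overlapped those of both groups. Mzb1 was below 10 in all SNL libraries, so it passed the filter on low values through the treated libraries alone. Among all tested genes 13.4% rose, but the B cell count rests on 4 genes chosen in part this way. With the model term none of the 4 passed.

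None of 11 MHC class II genes passed the test (median -0.31, and 0.21 against SNL replicate 3 alone). Cd74, the invariant chain gene, had 12390.3, 8623, 7056 and 7664 in SNL and 4683, 7777 and 9018 with UNC0638, overlapping. Of 22 complement genes 4 rose and 2 fell (18.2% and 9.09%, beside 13.4% and 14.4% of all tested genes). The counts were 5 and 2 without the library labelled replicate 1 and 3 and 2 with the model term. Rises among complement genes ran from 3 (without SNL replicates 1 and 2 and SNL plus UNC0638 replicates 2 and 3) to 7 (without Sham replicate 3) when 1 library at a time was left out. C6, a component of the membrane attack complex, had 23.5, 18.9, 28.5 and 24.6 in SNL and 166, 266 and 236 with UNC0638 (log2 fold change 3.15, SE 0.38, adjusted p = 0.000464). Cd59, whose product blocks that complex, fell from 5969 ± 769 to 2271 ± 277 (-1.39, adjusted p = 0.00118), below all 8 other libraries.

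Receptor genes of small-diameter neurons were also among the 14 highest. Mrgprd, which marks non-peptidergic nociceptors, had scaled counts of 339, 217, 182 and 265 in Sham, 1.88, 0.857, 27.8 and 0 in SNL and 186, 107 and 82.6 with UNC0638 (log2 fold change 5.08, SE 0.87, adjusted p = 0.00235). Mrgprb4 and Mrgprx1, of the same receptor family, rose by 4.71 and 4.62, the latter with an adjusted p of 0.0113. The sources used here do not state how reads were shared between near-identical members of this family. For all 3, the highest SNL value was in SNL replicate 3, and the treated libraries lay between SNL and Sham or at the low end of Sham. Sst, the gene of the neuropeptide somatostatin, had 6.58, 4.29, 60.8 and 5.47 in SNL and 455, 231 and 124 with UNC0638 (log2 fold change 4.39, SE 0.72, adjusted p = 0.00203).

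Of 16 genes of nicotinic acetylcholine receptor subunits, which form cation channels opened by acetylcholine, 10 were tested, of which 8 rose and Chrnb2 fell. This family was tallied after its values were seen, so its count is no independent measure. Among all tested genes 13.4% rose and 14.4% fell. The filter on low values also favoured rises among members low in SNL, since these were tested only if the treated libraries were high. Without the library labelled replicate 1 the counts were also 8 and 1, and with the model term 5 and 0. Chrna3 had 8.47, 9.86, 90.9 and 5.47 in SNL and 583, 302 and 208 with UNC0638 (log2 fold change 4.40, SE 0.73, adjusted p = 0.00212). It reached 10 in only 1 SNL library and so met the filter only with the treated libraries. Chrnb3 had 30.1, 54.4, 327 and 47.4 and 1642, 865 and 679 (log2 fold change 3.77, SE 0.64, adjusted p = 0.00228). Chrnb4 and Chrna6 rose by 4.52 and 2.37. In the first 3 of these 4 genes SNL replicate 3 stood far above the other SNL libraries and still below every treated library.

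Other receptor genes also rose. The serotonin-gated channel gene Htr3b went from 83.9 ± 117 to 735 ± 315 (log2 fold change 3.91, adjusted p = 0.00275) and Casr, the calcium-sensing receptor gene, from 28 ± 30.5 to 316 ± 88.6 (3.90, adjusted p = 0.00105). Camkv, a gene of a kinase-like vesicle protein, rose by 4.20. Fam46b, a gene of the nucleotidyltransferase family, had 8.35, 6.82, 37.4 and 11.5 in Sham, 2.82, 3.43, 9.76 and 7.3 in SNL and 144, 128 and 72.2 with UNC0638 (log2 fold change 4.16, SE 0.55, adjusted p = 0.000822), above Sham as well as SNL in all treated libraries.

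Of 23 nociceptor markers 10 rose and 3 fell (median 0.69), and 9 and 3 without the library labelled replicate 1 and 8 and 2 with the model term. The 3 that fell were Gfra3, a co-receptor of the growth factor artemin, Prph, the gene of the intermediate filament peripherin, and Ptgir, the prostacyclin receptor gene. Gfra3 had 1346, 1492, 1377 and 1312 in SNL and 474, 534 and 773 with UNC0638 (log2 fold change -1.25, SE 0.15, adjusted p = 0.000493). Prph had 39661, 42542, 35192 and 36818 and 23008, 23548 and 21665 (log2 fold change -0.76, SE 0.12, adjusted p = 0.00142), below all 8 other libraries.

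Markers of large-diameter neurons depended on single libraries. Of 17, 5 rose and none fell (median 0.83), none passed without the library labelled replicate 1 or with the model term, and the median against SNL replicate 3 alone was -0.07. Rises among these markers ran from 0 (without SNL plus UNC0638 replicate 1) to 11 (without SNL replicate 3), with 1 without SNL replicates 1, 2 and 4 and SNL plus UNC0638 replicate 2, 3 without Sham replicate 4 and 8 without Sham replicate 3 when 1 library at a time was left out. Pvalb, the gene of parvalbumin in proprioceptors, had 32.9, 36, 364 and 9.12 in SNL and 1491, 295 and 227 with UNC0638, which overlapped (log2 fold change 3.33, SE 0.97, adjusted p = 0.0258, and adjusted p = 0.101 without the library labelled replicate 1).

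Of 78 potassium channel genes (symbols that begin with Kcn, auxiliary proteins included), 45 rose and 2 fell, and 29 and 2 without the library labelled replicate 1 and 14 and 2 with the model term. Their median log2 fold change was 1.08, 0.82 without that library, 0.58 with the model term and 0.56 against SNL replicate 3 alone. Kcng4, a modifier subunit of voltage-gated channels, had the smallest p of the list and had 121, 96.6, 114 and 122 in Sham, 95.9, 80.6, 103 and 177 in SNL and 431, 658 and 506 with UNC0638 (log2 fold change 2.25, SE 0.24, adjusted p = 0.00029). All treated values of Kcng4 were above all Sham values, which overlapped those of SNL. Kcnt1, a sodium-activated channel gene, had 211, 260.2, 334 and 218 in SNL and 887, 665 and 528 with UNC0638 (log2 fold change 1.43, SE 0.21, adjusted p = 0.00112), with treated values inside or below the Sham range of 618 to 899. Kcnip2, an auxiliary protein of the Kv4 channels, went from 163 ± 72.9 to 706 ± 297 (2.12, adjusted p = 0.00126).

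The 2 potassium channel genes that fell were Kcnn1, a calcium-activated channel gene (-1.04), and Kcnmb4, an auxiliary subunit of the large-conductance channel (-0.88). Of 14 sodium channel genes 7 rose and none fell, and 3 and 0 without the library labelled replicate 1 and 3 and 0 with the model term (median 0.76, and 0.12 against SNL replicate 3 alone). Scn11a, a channel gene of nociceptors, had 307, 479, 1575 and 439.6 in SNL and 8748, 5132 and 3702 with UNC0638 (log2 fold change 3.28, SE 0.46, adjusted p = 0.00105). Scn2a1 was at 136 to 207 in Sham and 122 to 181 in SNL and at 361, 353 and 285 with UNC0638, above all 8 other libraries (log2 fold change 1.06, SE 0.19, adjusted p = 0.0027).

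Of 20 genes beginning Cacn, which include the auxiliary subunits and the gamma family of glutamate receptor partners, 9 rose and 1 fell, and 6 and 1 without the library labelled replicate 1 and 3 and 1 with the model term. Cacna2d1, the alpha-2-delta subunit bound by gabapentin, was the 1 that fell, with 11944, 15683, 13749 and 10995 in SNL, 2474, 4336 and 6295 with UNC0638 and 2349.8 to 2615 in Sham (log2 fold change -1.67, SE 0.25, adjusted p = 0.00128). Its relative Cacna2d2 moved the other way (2.05, adjusted p = 0.00437), as did Cacna1i, a low-voltage-activated channel gene (5.64, 16.7, 27 and 13.7 in SNL and 171, 92.8 and 82.6 with UNC0638, 2.90). Of 26 glutamate and GABA-A receptor genes 9 rose and 1 fell, and 7 and 1 without the library labelled replicate 1 and 3 and 1 with the model term. The kainate receptor gene Grik1 had 102, 137, 329 and 172 and 1876, 1120.1 and 858 (log2 fold change 2.85, SE 0.36, adjusted p = 0.000608). The 1 that fell was Gabra5, a GABA-A receptor subunit, from 515 ± 138 to 125 ± 45.1 (-2.05, adjusted p = 0.000646), around the Sham range of 107 to 168.

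Of 27 inhibitory G protein-coupled receptor genes 10 rose and 1 fell, and 3 and 1 without the library labelled replicate 1 and 3 and 1 with the model term. Rises among these receptors ran from 3 (without SNL plus UNC0638 replicate 1) to 12 (without SNL replicate 3), with 6 without SNL replicate 1 and SNL plus UNC0638 replicate 2 when 1 library at a time was left out. The glutamate receptor gene Grm7 rose from 272 ± 41.3 to 488 ± 139 (0.82, adjusted p = 0.00704), and the 1 that fell was the somatostatin receptor gene Sstr4, with 44.2, 54.9, 39 and 32.8 in SNL and 3.59, 9.28 and 12.9 with UNC0638 (log2 fold change -2.31, SE 0.47, adjusted p = 0.00536). Among 28 genes of synaptic vesicles and exocytosis, 5 rose and 3 fell, and 3 and 4 without the library labelled replicate 1 and 1 and 3 with the model term. The shares (17.9% and 10.7%) compare with 13.4% and 14.4% of all tested genes, and the median of 0.45 was -0.23 against SNL replicate 3 alone. Rises among synaptic genes ran from 3 (without SNL plus UNC0638 replicate 1) to 12 (without SNL replicate 3) when 1 library at a time was left out. Unc13c, a priming factor, rose by 2.34.

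**Figure D3:**
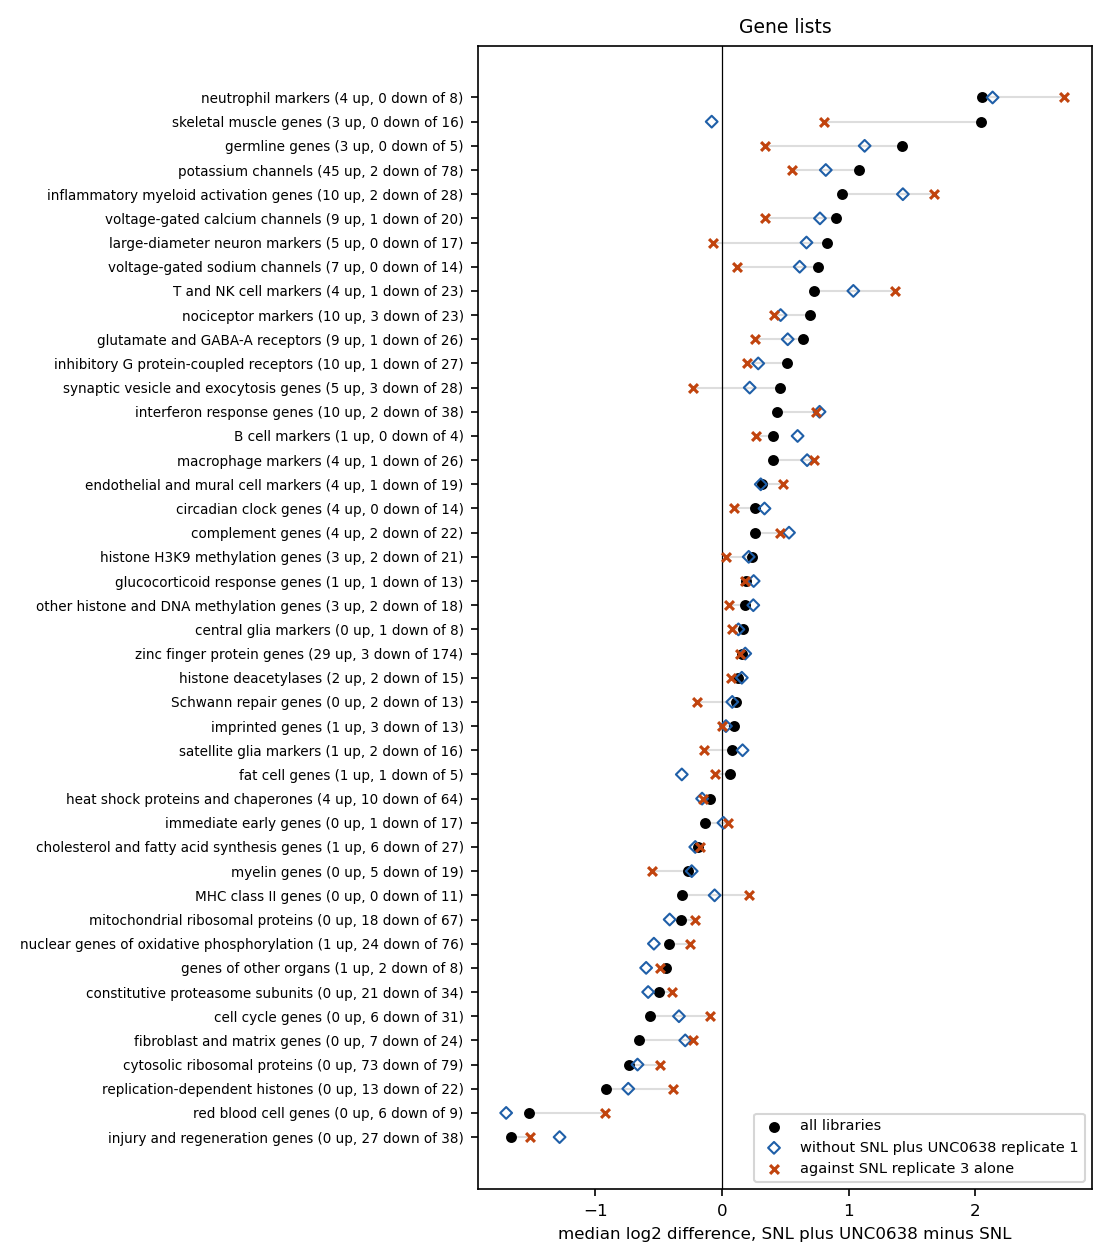
Median log2 difference between SNL plus UNC0638 and SNL for each of the 44 gene lists, over all libraries (black dots), without the library labelled SNL plus UNC0638 replicate 1 (blue diamonds) and against SNL replicate 3 alone (orange crosses); labels give the members that rose and fell of those tested. The skeletal muscle median goes from 2.05 to -0.08 without the library labelled replicate 1, and that of large-diameter neuron markers from 0.83 to -0.07 against SNL replicate 3 alone.

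Genes that ligation is known to raise were lower with UNC0638, by an amount that the library labelled replicate 1 enlarged. Of 38 injury and regeneration genes none rose and 27 fell (median -1.66), and 2 rose and 23 fell without that library (median -1.28). With the model term 15 fell and none rose. Gal, the gene of the neuropeptide galanin, had 69.6, 87.5, 43.6 and 74.6 in Sham, 3205, 2991, 1788 and 3041 in SNL and 52, 539.9 and 768 with UNC0638 (log2 fold change -3.26, SE 0.70, adjusted p = 0.00704). Without the library labelled replicate 1 its log2 fold change was -2.06 (adjusted p = 0.0024). Csrp3, the gene of a muscle LIM protein that injured neurons also make, had 1127, 760.5, 562 and 585 in SNL and 3.59, 130.0 and 120.0 with UNC0638 (log2 fold change -4.13, and -2.53 without that library). In replicates 2 and 3 both genes stayed far above Sham and below SNL.

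The neuropeptide genes Npy and Vip fell by 3.88 and 4.10 on the log2 scale, and by 1.94 and 2.01 without the library labelled replicate 1. Npy had 5148, 5692, 3043 and 5339 in SNL and 20.6, 908 and 1624 with UNC0638, and Vip 3884, 3076, 2215 and 2437 and 8.07, 476 and 1032. Pdyn, the gene of the opioid peptide precursor prodynorphin, had 55.5, 64.3, 33.8 and 54.7 and 0.897, 6.19 and 21.9 (log2 fold change -2.93, SE 0.66, adjusted p = 0.00822). Ucn, the gene of urocortin, fell by 3.02 and the cytokine gene Il24 by 3.00. Mmp16, a membrane metalloproteinase gene, fell from 775 ± 137 to 262 ± 109 (-1.63, adjusted p = 0.00131). The calls of Vip, Crisp1, Npy, Hpd, Cidec, Ucn, Il24 and Krt19 were each lost when 1 or more of SNL replicates 1, 2 and 4 was left out.

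The others among the 14 lowest outside the injury list were mostly at low values in Sham. Crisp1, a gene of the secreted CRISP family, had 1365, 982, 642 and 874 in SNL and 1.79, 172 and 347 with UNC0638 (log2 fold change -4.08). Pde6b, a phosphodiesterase gene known from photoreceptors, had 629, 632, 515 and 459 and 13.5, 128 and 169 (-3.02), and Vtcn1, a gene of an inhibitory ligand of T cells, 77.1, 133, 110.4 and 95.8 and 1.79, 15.5 and 43.9 (-3.02). Hpd, a gene of tyrosine breakdown, Cidec, a lipid droplet gene, and the keratin gene Krt19 fell by 3.20, 3.02 and 2.89. Of 17 immediate early genes only Dusp1, a phosphatase gene, passed the test, from 402 ± 49.2 to 267 ± 37.8 (-0.59, adjusted p = 0.0133).

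Most genes of cytosolic ribosomal proteins fell. Of 79 cytosolic ribosomal protein genes 73 fell and none rose (median -0.73), 57 without the library labelled replicate 1 (median -0.67) and 32 with the model term; the median against SNL replicate 3 alone was -0.49. Rps16 had 917, 1159, 1278 and 1755 in Sham, 3559, 1923, 1656 and 1724 in SNL and 296, 255 and 239 with UNC0638 (log2 fold change -3.00, SE 0.27, adjusted p = 0.000138). Rpl28 had 1329, 1236, 1019.7 and 1110.0 and 481, 430.1 and 543 (log2 fold change -1.27, SE 0.16, adjusted p = 0.000517). The treated libraries were below all 8 others for both. Ribosomal protein genes have many processed pseudogenes, and the sources used here do not say how shared reads were assigned.

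Genes of mitochondria and the proteasome had more falls than rises. Of 76 nuclear genes of oxidative phosphorylation 24 fell and 1 rose (median -0.42), 28 fell and none rose without the library labelled replicate 1, and 4 fell with the model term. Falls among oxidative phosphorylation genes ran from 10 (without SNL plus UNC0638 replicate 2) to 36 (without Sham replicate 3), with 15 without SNL replicate 1 when 1 library at a time was left out. Ndufb7, a subunit of complex I, had 857, 933, 798 and 1129.8 in Sham, 571, 539, 449 and 511 in SNL and 206, 155 and 107 with UNC0638 (log2 fold change -1.77, SE 0.20, adjusted p = 0.000356). Sdhc, a subunit of complex II, went from 1454 ± 177 to 731 ± 81.4 (-0.99, adjusted p = 0.000915). The 1 that rose was Cox4i2, an alternative subunit of complex IV (1.14), while the usual subunit gene Cox4i1 fell from 4193 ± 136 to 2544 ± 460.1 (-0.73).

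Of 67 mitochondrial ribosomal protein genes 18 fell and none rose (median -0.32), 18 fell without the library labelled replicate 1 and 5 with the model term. Falls among mitochondrial ribosomal genes ran from 9 (without SNL plus UNC0638 replicate 2) to 28 (without Sham replicate 3), with 10 without SNL replicate 1 and 11 without SNL replicates 2 and 4 and SNL plus UNC0638 replicate 3 when 1 library at a time was left out. Mrps23 had 583, 521, 497 and 541 in SNL and 301, 266 and 263 with UNC0638 (log2 fold change -0.95, SE 0.11, adjusted p = 0.000464). Of 34 constitutive proteasome subunits 21 fell and none rose (median -0.50), 19 fell without the library labelled replicate 1 and 9 with the model term. Falls among proteasome subunits ran from 13 (without SNL plus UNC0638 replicates 2 and 3) to 28 (without Sham replicate 3) when 1 library at a time was left out. Psmd8, of the regulatory particle, went from 2040.0 ± 172 to 1056 ± 83.1 (-0.95, adjusted p = 0.000965), below all 8 other libraries, while Psmb9, the interferon-induced subunit named above, rose. The estimated reads of the treated libraries (6127901 to 11180236) lay mostly below those of SNL (10616939 to 24367768), and the part of depth in these shared falls was not tested.

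Of 22 replication-dependent histone genes 13 fell and none rose (median -0.91, and -0.39 against SNL replicate 3 alone), 9 fell without the library labelled replicate 1 and 3 with the model term. Falls among histone genes ran from 8 (without SNL replicate 1) to 20 (without SNL replicate 3) when 1 library at a time was left out. Hist1h4m had 356, 325, 218 and 333 in SNL and 89.7, 130.0 and 161 with UNC0638 (log2 fold change -1.29, SE 0.24, adjusted p = 0.0032), values that reached back into the Sham range of 108 to 174. Of 31 cell cycle genes 6 fell (19.4%, beside 14.4% of all tested genes) and none rose. Falls numbered 2 without the library labelled replicate 1 and 1 with the model term. Falls among cell cycle genes ran from 2 (without SNL replicates 1 and 2 and SNL plus UNC0638 replicate 1) to 11 (without SNL replicate 3), with 3 without SNL plus UNC0638 replicate 2 when 1 library at a time was left out. Mcm7, a replication helicase gene, had 379, 322, 309 and 312 and 143, 192 and 206 (log2 fold change -0.88, SE 0.14, adjusted p = 0.00191). Among 64 heat shock and chaperone genes 4 rose and 10 fell, and 2 and 10 without the library labelled replicate 1 and 3 and 2 with the model term. Their shares were 6.25% and 15.6%, beside 13.4% and 14.4% of all tested genes. Rises among chaperone genes ran from 2 (without SNL replicate 1 and SNL plus UNC0638 replicate 1) to 7 (without Sham replicate 3), and falls from 4 (without SNL plus UNC0638 replicate 2) to 13 (without Sham replicate 3), with 6 without SNL replicates 1, 2 and 4 and SNL plus UNC0638 replicate 3, when 1 library at a time was left out. Hspb1, whose product protects injured neurons, went from 7620.1 ± 1632 to 2038 ± 418 (-1.90), below Sham too, and Hspe1, a mitochondrial chaperonin gene, from 533 ± 49.9 to 282 ± 23 (-0.92, adjusted p = 0.00666).

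Among 15 histone deacetylase and sirtuin genes 2 rose and 2 fell (13.3% each, beside 13.4% and 14.4% of all tested genes), and 1 and 1 without the library labelled replicate 1 and 0 and 0 with the model term. Rises among deacetylase genes ran from 0 (without SNL plus UNC0638 replicate 2) to 4 (without Sham replicate 3), and falls from 1 (without SNL replicates 1 and 4 and SNL plus UNC0638 replicates 1 and 3) to 2 (in 7 of 11 fits), when 1 library at a time was left out. Hdac2, a nuclear deacetylase gene, went from 1765 ± 218 to 1062 ± 134 (-0.73, adjusted p = 0.00882), and Hdac4 from 435 ± 116 to 836 ± 112 (0.97, adjusted p = 0.0127). Of 18 other histone and DNA methylation genes 3 rose and 2 fell (16.7% and 11.1%), and 0 and 1 without the library labelled replicate 1 and 0 and 0 with the model term. Rises among other methylation genes ran from 0 (in 7 of 11 fits) to 5 (without Sham replicate 3 and SNL replicate 3), and falls from 1 (without SNL replicates 1, 2 and 4 and SNL plus UNC0638 replicate 1) to 3 (without Sham replicate 3 and SNL plus UNC0638 replicate 3), when 1 library at a time was left out. Rbbp4, a histone-binding subunit of several chromatin complexes, had 1649.8, 1617, 1450.2 and 1718 in SNL and 1095, 1028 and 1240.3 with UNC0638 (log2 fold change -0.52, SE 0.12, adjusted p = 0.00862). Of 27 cholesterol and fatty acid synthesis genes 1 rose and 6 fell (3.70% and 22.2%, beside the same 13.4% and 14.4%). The counts were 1 and 3 without the library labelled replicate 1 and 0 and 3 with the model term. Falls among lipid synthesis genes ran from 3 (without SNL replicates 1, 2 and 4 and SNL plus UNC0638 replicates 1 and 2) to 9 (without Sham replicate 3) when 1 library at a time was left out. Mvd, a gene of the mevalonate pathway, fell from 747 ± 37.1 to 458 ± 36 (-0.71, adjusted p = 0.00106).

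The fibroblast, matrix and myelin genes that passed the test over all libraries were lower. Of 24 fibroblast and matrix genes none rose and 7 fell (29.2%, beside 14.4% of all tested genes, median -0.66). Without the library labelled replicate 1, 1 rose and 4 fell (median -0.29), and none rose and 3 fell with the model term. Falls among matrix genes ran from 4 (without SNL plus UNC0638 replicate 1) to 11 (without SNL replicate 3) when 1 library at a time was left out. Lum, the gene of the collagen-binding proteoglycan lumican, had 4824, 3192, 1743 and 7060.2 in SNL and 804, 854 and 1428 with UNC0638 (log2 fold change -1.90, SE 0.39, adjusted p = 0.00526). Postn, the gene of the matrix protein periostin, went from 1512 ± 509 to 480.5 ± 284 (-1.75, adjusted p = 0.00711). Of 19 myelin genes 5 fell (26.3%, beside the same 14.4%) and none rose. The counts were 0 and 4 without the library labelled replicate 1 and 0 and 3 with the model term. Mbp, the gene of myelin basic protein, had 16663, 12723, 18454 and 15594 in SNL and 9254, 10082 and 10798 with UNC0638 (log2 fold change -0.65, SE 0.13, adjusted p = 0.00583).

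Of 13 Schwann repair genes 2 fell (15.4%, beside 14.4% of all tested genes). They were Jun, a transcription factor of the repair programme of Schwann cells (6612, 6994, 6382 and 6040.5 in SNL, 1883, 3954 and 3754 with UNC0638, -1.10), and Gap43. Both are also on the list of neuronal injury genes. Of 16 satellite glia markers 1 rose and 2 fell (6.25% and 12.5%, beside 13.4% and 14.4% of all tested genes). The counts were 2 and 2 without the library labelled replicate 1 and 0 and 2 with the model term. The 1 that rose was Slc1a3, a glutamate transporter gene (0.58, adjusted p = 0.0386), and its call was lost in 8 of 11 fits that each left out 1 library. The intermediate filament gene Vim, shared with many cell types, went from 37616 ± 3269 to 20662 ± 6194 (-0.91, adjusted p = 0.00864), with the lowest value (14006) in the library labelled replicate 1. Of 8 central glia markers Cspg5 fell by 0.81 (a share of 12.5%) and none rose. Of 19 endothelial and mural cell markers 4 rose and 1 fell (21.1% and 5.26%, beside 13.4% and 14.4% of all tested genes). The counts were 4 and 0 without the library labelled replicate 1 and 4 and 0 with the model term. Rises among vessel markers ran from 2 (without SNL plus UNC0638 replicate 2) to 4 (in 6 of 11 fits) when 1 library at a time was left out. Flt1, a receptor for vascular endothelial growth factor, had 295, 292, 289 and 252 in SNL and 563, 503 and 537 with UNC0638 (log2 fold change 0.92, SE 0.12, adjusted p = 0.000849), above all 8 other libraries, and Notch3, a receptor of mural cells, went from 451 ± 64.3 to 1037 ± 283 (1.18).

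Genes of blood and tissue around the ganglion differed between libraries. Of 9 red blood cell genes none rose and 6 fell (median -1.53, and -1.70 without the library labelled replicate 1), and 0 and 4 without the library labelled replicate 1 and 0 and 2 with the model term. Falls among red cell genes ran from 3 (without SNL replicates 1 and 4) to 6 (without Sham replicates 1, 2 and 3 and SNL replicates 2 and 3) when 1 library at a time was left out. Hba1, a globin gene, had 309, 189.7, 156 and 275 in Sham, 440.2, 184, 144 and 333 in SNL and 59.2, 40.2 and 21.9 with UNC0638 (log2 fold change -2.70, SE 0.42, adjusted p = 0.0015). Their summed scaled count was 312 to 662 with UNC0638, 878 to 2423 in SNL and 913 to 1842 in Sham, so SNL replicates differed among themselves as well. Of 16 skeletal muscle genes 3 rose (18.8%, beside 13.4% of all tested genes) and none fell. Rises numbered 1 without SNL replicate 1, 2 or 4, 2 without the library labelled replicate 1 and 0 with the model term. The median of 2.05 was -0.08 without the library labelled replicate 1. The summed count of the tested muscle genes was 83271 in that library and 521 to 955 in the other 10. Of 5 fat cell genes Lipe, the gene of hormone-sensitive lipase, rose from 125 ± 11 to 391 ± 78.2 (1.62, adjusted p = 0.000284) and Cidec fell. Of 8 genes of other organs 1 rose and 2 fell. The heart myosin gene Myh6 had 11.3, 11.6, 18.8 and 10.03 in SNL and 179, 142 and 152 with UNC0638 (log2 fold change 3.55, SE 0.30, adjusted p = 0.000113), near equal in the treated libraries, unlike the skeletal muscle genes.

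**Figure D4:**
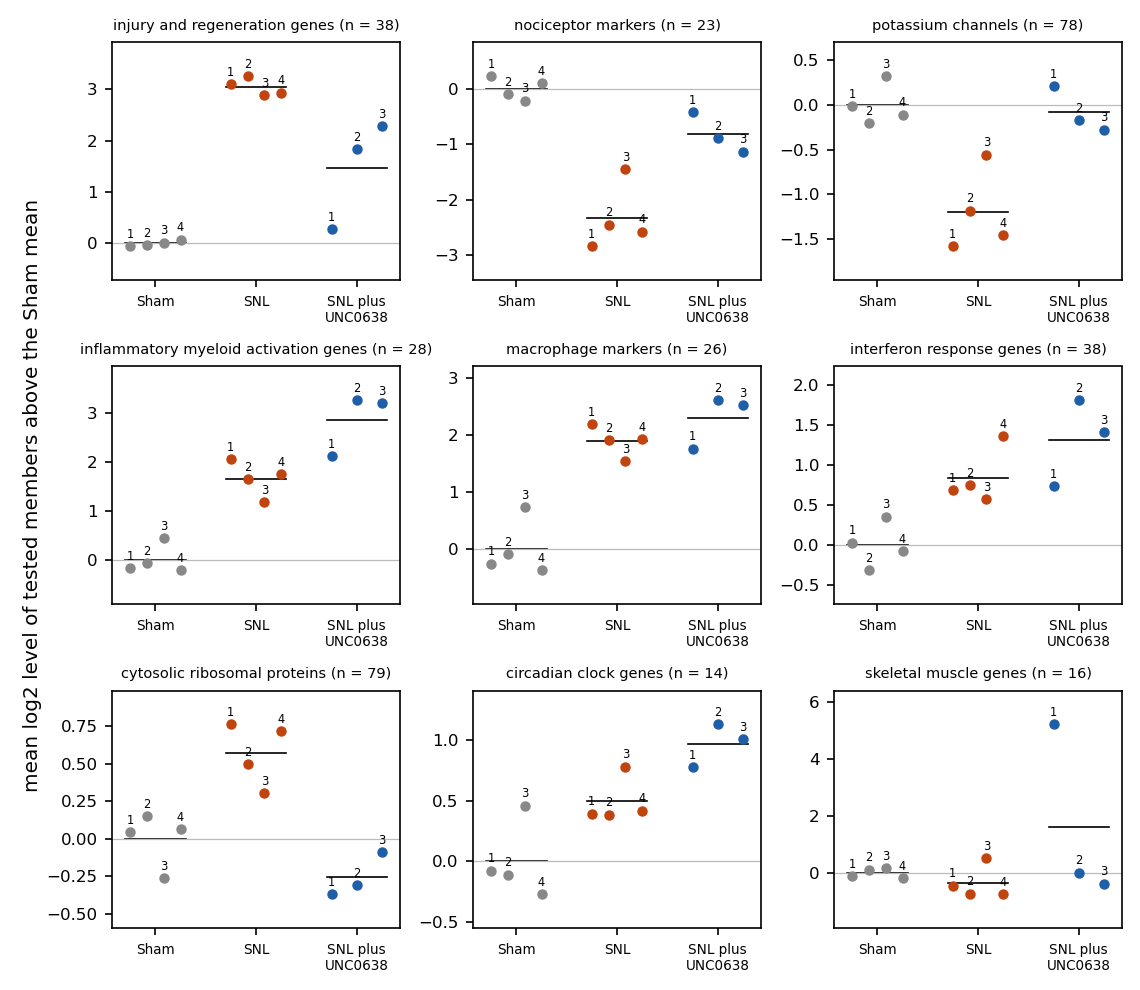
Mean log2 level of the tested members of 9 gene lists above the Sham mean, in each library (numbered by replicate), for Sham, SNL and SNL plus UNC0638; lines are group means. The library labelled SNL plus UNC0638 replicate 1 lies at 0.28 for injury genes and at 5.20 for skeletal muscle genes, and SNL replicate 3 lies at -0.56 for potassium channels, against -1.59 to -1.18 in the other SNL libraries.

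Of 14 circadian clock genes 4 rose and none fell, and 3 and 0 without the library labelled replicate 1 and 2 and 0 with the model term. Their median was 0.26, 0.09 against SNL replicate 3 alone and -0.0046 with the model term. Per2, a repressor of the clock, had 65.4, 71.6, 249 and 53.8 in Sham, 96.9, 91.7, 287 and 93.9 in SNL and 587, 743 and 655 with UNC0638 (log2 fold change 2.39, SE 0.51, adjusted p = 0.00641). Sham replicate 3 and SNL replicate 3 were the highest of their groups, and all treated libraries were above them. Cry1, also a repressor, had 53.6, 66.4, 113 and 103 and 221, 248 and 283 (log2 fold change 1.62, SE 0.25, adjusted p = 0.00155), and Per3 rose by 1.69. The activators Clock and Arntl, named after their values were seen, gave 0.01 (adjusted p = 0.984) and -0.83 (adjusted p = 0.103). The sources used here do not give the time of day at which tissue was taken.

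Of 174 genes with symbols beginning Zfp, which encode zinc finger proteins, 29 rose and 3 fell (median 0.16), and 18 and 1 without the library labelled replicate 1 and 15 and 1 with the model term. The shares (16.7% and 1.72%) compare with 13.4% and 14.4% of all tested genes. Rises among Zfp genes ran from 17 (without SNL replicate 1) to 42 (without Sham replicate 3), with 18 without SNL plus UNC0638 replicate 1, and falls from 1 (without SNL plus UNC0638 replicates 1 and 2) to 7 (without Sham replicate 3), when 1 library at a time was left out. Zfp142 had 363, 430.0, 541 and 401 in SNL and 936, 865 and 962 with UNC0638 (log2 fold change 1.10, SE 0.14, adjusted p = 0.000522). Zfp692 went from 87.8 ± 19.3 to 229.9 ± 19.8 (1.40, adjusted p = 0.00107). The treated libraries were above all 8 others for both.

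Of 20 germline genes, 5 passed the filter on low values, of which 3 rose (2 without the library labelled replicate 1 and 1 with the model term): Tex15, a gene of meiotic recombination (21.6, 41.2, 57.1 and 28.3 in SNL, 187, 105 and 98 with UNC0638, 1.81), Sycp2, a gene of the synaptonemal complex (9.41, 3.00, 4.51 and 7.3 and 26.9, 24.8 and 38.7, 2.21), and Piwil2 (1.42). Tex15 and Piwil2 stayed below Sham or within its range, and Sycp2 was above all 8 other libraries. Sycp2 was below 10 in all SNL libraries, so it passed the filter through the treated libraries alone. The share of rises was 60.0%, beside 13.4% of all tested genes, but it rests on 5 genes chosen in part this way. The germ cell genes Dazl and Cyct were listed at 0 in all 11 libraries. Of 13 imprinted genes 1 rose and 3 fell (7.69% and 23.1%, beside 13.4% and 14.4% of all tested genes). The counts were 0 and 3 without the library labelled replicate 1 and 0 and 1 with the model term. Falls among imprinted genes ran from 1 (without SNL replicates 1 and 2 and SNL plus UNC0638 replicates 2 and 3) to 3 (without Sham replicates 1, 2, 3 and 4 and SNL plus UNC0638 replicate 1) when 1 library at a time was left out. Nnat, the gene of neuronatin, fell from 489 ± 46.4 to 343 ± 29.4 (-0.51, adjusted p = 0.0103). Of 13 glucocorticoid response genes 1 rose and 1 fell (7.69% each, below the shares of all tested genes). The counts were 1 and 1 without the library labelled replicate 1 and 1 and 0 with the model term. Mt2A, a metallothionein gene that metals and cytokines also induce, had 37.6, 42, 48.1 and 21 in SNL and 175, 265 and 307 with UNC0638 (log2 fold change 2.73, SE 0.30, adjusted p = 0.000306), above all 8 other libraries.

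In 1129 genes (9.44%) all 3 treated libraries were above all 8 Sham and SNL libraries, and in 1254 (10.5%) they were below them. Of these, 800 and 855 also passed the test (6.69% and 7.15%), and 678 and 718 did so both with and without the library labelled replicate 1 (5.67% and 6.01%). These genes left the range between Sham and SNL, while Gal, Mrgprd, Kcnt1 and others named above stayed between the levels of both groups or at the edge of Sham.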

How the data were processed

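RNA of rat dorsal root ganglia was sequenced as single reads of 50 bases on a HiSeq 2500. The authors aligned reads to build rn4, and TopHat2 2.0.9 and Cuffdiff 2.1.1 are named in the submitters' processing notes. The deposited values are treated as signal: gene counts that were scaled with 1 factor per library before deposit, since 98.9% to 99.4% of low values were whole multiples of 1 step within a library. They are not raw counts, so limma on log values was the test, and the reads estimated from the steps, rounded, entered only limma-voom as an alternative. The sources used here do not state the counted annotation, the use of strand or how reads shared by genes were split.

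limma 3.58.1 (R 4.3.3, statmod 1.5.0) was fitted to log2(value + 1) over 11 libraries with 1 mean per group, eBayes trend and robust, and checked on simulated data. The table gives symbols only, and 24 names altered to dates (21 of them tested) were kept as written.

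Named by rule were the 14 highest and 14 lowest log2 fold changes among genes that passed with and without SNL plus UNC0638 replicate 1, had no overlap between both groups and a mean of at least 50 in the higher one, and per list the 4 members that passed with the smallest p, or 2 abundant ones, with Ehmt1 and Ehmt2. The members and the 44 lists were chosen with earlier results of these data known. The gene Grid2ip, which is no receptor, was taken out of a list after its value was seen. Other scalings, filters, pseudocounts, fits and left-out libraries were tried. Promoter sequences are RefSeq's (GRCr8), a later build than rn4.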

Additional observations from a re-analysis of the deposited data

Results flagged for a closer look

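A gap test on the 4 SNL values of the 178 named genes found 1 library far from the other 3 in 21 genes. For any 1 gene with normal values chance gives about 1 in 20. Most of these genes were named by differences in these same values, and they share libraries, so that rate is not their chance level. SNL replicate 3 was that library in 18 of them. It was the high one for Mrgprd (27.8), Mrgprb4 (29.3), Chrnb4 (12.8), Chrna3 (90.9), Sst (60.8), Camkv (16.5), Htr3b (259) and Casr (73.6). The same held for Chrnb3 (327), Kcna4 (217), Scn11a (1575), Cacng5 (15.0), Pvalb (364), Myh8 (25.5), Piwil2 (57.1) and Per2 (287). It was the low one for Gal (1788) and Grm3 (3.75). SNL replicate 1 was far above the others in Rps16 (3559), and SNL replicate 4 far below them in Flt1 (252) and S100b (5636).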

How the results depend on the processing

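Higher and lower counts were 1599 and 1725. They stayed within 1.5 times under median-of-ratios and upper-quartile scaling, log2(value + 5), no filter, a minimum of 50, only the 7 libraries and eBayes without robust estimates. At an adjusted p under 0.01 they were 646 and 653, and with the model term 627 and 649. limma-voom with quality weights, added after seeing the data, gave 3258 and 1533. Leaving out each library gave 984 to 2176 higher and 1032 to 2253 lower: lowest without SNL plus UNC0638 replicate 2 (984 and 1095) and SNL replicate 1 (1026 and 1032), highest without Sham replicate 3 (2176 and 2253). Leaving out SNL plus UNC0638 replicate 1 and SNL replicate 3 together, also added later, gave 1547 and 1542. A fit that added a replicate block gave 1037 and 1074, or 51 and 12 with only the 7 libraries. Same-numbered SNL and SNL plus UNC0638 libraries deviated from their group means with correlations of -0.324, -0.0923 and -0.451 over genes. For same-numbered Sham and SNL libraries they were 0.185, 0.0134, 0.436 and 0.097, and for Sham and SNL plus UNC0638 0.0151, -0.245 and -0.111. Deviations within so small a group oppose each other, and single libraries that stand apart weigh on them. These values therefore cannot tell whether the numbers pair the samples. None of the 174 named genes that passed the test changed direction under any alternative run. That check did not cover the named genes that did not pass, Ehmt1 and Ehmt2 among them. The cause of the moved counts was not tested. The edgeR and DESeq2 tests planned for whole reads were left out, because some values near 0 were no multiple of the step and the reads were only estimated. limma-voom on the rounded estimates was run in their place.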

Other observations

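Genes outside the naming rule, chosen after their values were seen, also left the range of all 8 Sham and SNL libraries. LOC100362110 had scaled counts of 2981 to 8702 in those and 46015, 41488 and 56574 in the SNL plus UNC0638 libraries (log2 fold change 3.03, SE 0.27, adjusted p = 0.000138). Hmox2-ps1, listed as a pseudogene of haem oxygenase 2, had 1029.9 to 3193 and 11549, 11878 and 13034 (log2 fold change 2.57, SE 0.28, adjusted p = 0.000309). LOC100361645 had 187 to 456 and 2609, 2093 and 3426, and LOC499136 68.4 to 233 and 1335, 1055 and 1616. In each of these 4 entries SNL replicate 4 was the highest of the 8, and whether they share reads with each other or with another copy was not tested.

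The chemokine gene Cxcl13, which draws B cells, had 41.4, 79.7, 76.6 and 62.9 in SNL and 294, 534 and 1265 with UNC0638 (log2 fold change 3.19, SE 0.53, adjusted p = 0.00216). RT1-T24-2, of the MHC class I genes, had 15, 15, 23.3 and 23.7 and 164, 190.3 and 178 (3.17). Agbl4, a gene of tubulin deglutamylation, had 22.6, 20.1, 23.3 and 29.2 and 224, 149 and 246 (3.04), and Sspo, the gene of SCO-spondin, 4.7, 4.29, 5.26 and 6.38 and 76.2, 101 and 60.6 (3.68).

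On the lower side, Prkar1a, a regulatory subunit gene of protein kinase A, had 1007, 1068, 886 and 940.3 in SNL and 314, 402 and 402 with UNC0638 (log2 fold change -1.39, SE 0.14, adjusted p = 0.000245). Cfl1, the gene of the actin-severing protein cofilin, went from 8721 ± 470.3 to 4076 ± 543 (-1.10, adjusted p = 0.000306), and Anxa2, a membrane-binding annexin gene, from 15744 ± 1884 to 7241 ± 800.4 (-1.12, adjusted p = 0.000464). The RNA polymerase II subunit gene Polr2e and the RNA-binding gene Lsm4 fell by 1.18 and 1.37 on the log2 scale, below all 8 other libraries in all 3 treated ones.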
